A study of Drosophila melanogaster with 4 samples.

Results

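Prospero (*pros*, FBgn0004595, on chromosome arm 3R from 11328480 to 11407627 of BDGP6.54) is a homeodomain transcription factor that is inherited by the ganglion mother cell when a neural stem cell (NSC) divides, where it represses stem cell genes and promotes exit from the cell cycle. Some neurons keep or regain *pros* transcript after they have left the cycle, and others do not. Neurons were taken here as cells with at least 2 unique molecular identifiers (UMIs, 1 per RNA molecule caught in a droplet) of *nSyb*, the synaptic vesicle protein neuronal Synaptobrevin, and with none of the stem cell genes *dpn* and *wor*. Of 3567 cells kept from 4152 called, 1762 met this rule, of which 310 were selected on at least 2 *pros* UMIs (*pros*-positive) and 1299 on none (*pros*-negative). The 153 neurons with 1 *pros* UMI were in neither group.

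The cells carried *wor*-GAL4 driving UAS-mCD8-GFP, a membrane-bound GFP, and were sorted for GFP from stage 17 embryos, when NSCs are quiescent, and from larval brains at 24 h after larval hatching (ALH), after reactivation. The labels give brain as the tissue at both stages, whereas the study's methods name brains for the larvae only. Every cell compared therefore shares this driver, and because GFP can persist from a *wor*-expressing precursor into its progeny, the neurons are those that the driver and the gate let through, not a sample of all neurons of the brain. There were 2 libraries per stage, labelled as biological replicates, and all used version 3 of the 10x Chromium chemistry except library 1 of stage 17, which used version 2. The *pros*-positive and *pros*-negative neurons of a library came from the same droplets, so that each library was its own pair, and the question asked was which other transcripts distinguish neurons with and without *pros*.

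The groups differed in size between the stages. The *pros*-positive neurons numbered 19 of 241 and 122 of 979 neurons in the stage 17 libraries, 7.88% and 12.5% (95% exact binomial intervals 4.81 to 12.04 and 10.5 to 14.7). At 24 h ALH there were 42 of 178 and 127 of 364, or 23.6% and 34.9% (17.6 to 30.5 and 30.0 to 40.03). These intervals cover counting error only, and neurons at 24 h ALH were also deeper, with medians of 21623.5 and 9722 UMIs in *pros*-positive neurons as against 4934 and 4699.5 at stage 17. In *pros*-negative neurons the medians were 15220 and 11111.5 UMIs at 24 h ALH and 4437 and 5025 at stage 17, so that within a library the groups were close in depth except in the first 24 h ALH library. Library totals ran from 2219533 to 53458971 UMIs, 2 pairs of libraries shared 12 and 1 cell barcodes, and Scrublet called 0.656% to 1.63% of a library's cells as doublets. The sums compared held 132930 and 1174820 UMIs over *pros*-positive neurons at stage 17, and 1112140 and 1934651 at 24 h ALH.

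The rule used *pros*, *nSyb*, *dpn* and *wor*, so their values are given as a description only. The *pros* counts of 24 h ALH neurons formed a low and a high range. The median *pros*-positive neuron held 26.5 and 23 *pros* UMIs in the 24 h ALH libraries and the highest 158 and 266, while only 2 and 9 neurons stood at the threshold of 2 UMIs. At stage 17 the medians were 6 and 3 UMIs, the highest neurons held 14 and 103, and 4 and 44 neurons stood at the threshold. Most *pros*-positive neurons at 24 h ALH were thus far above the threshold, and many in the second stage 17 library were next to it. As CPM of the cells' own UMIs, *pros* stood at 933 and 877 in stage 17 *pros*-positive neurons and at 1464 and 2344 at 24 h ALH. Cells with both *dpn* and *wor* UMIs held 249 and 287 CPM at stage 17 and 246 and 230 at 24 h ALH. *nSyb* stood at 1587 and 2003 CPM in *pros*-positive and 1856 and 2248 in *pros*-negative neurons at stage 17, and at 1211 and 1087 against 1892 and 1959 at 24 h ALH, lower in *pros*-positive neurons in each library. The label of neuron was checked with *elav*, which the rule did not use. It was present in 84.2% and 95.9% of *pros*-positive and 84.6% and 93.9% of *pros*-negative neurons at stage 17, and in 98.0% to 100% of both groups at 24 h ALH, but also in 84.8% to 97.6% of *dpn*- and *wor*-positive cells. After thinning each cell to 1000 UMIs, *elav* separated the neurons at 24 h ALH (66.7% and 72.4% of *pros*-positive, 53.3% and 57.0% of *pros*-negative neurons and 11.5% and 15.2% of *dpn*- and *wor*-positive cells) and did not separate them at stage 17 (42.1% and 59.0%, 45.7% and 52.6%, and 36.4% and 59.5%).

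**Figure D1:**
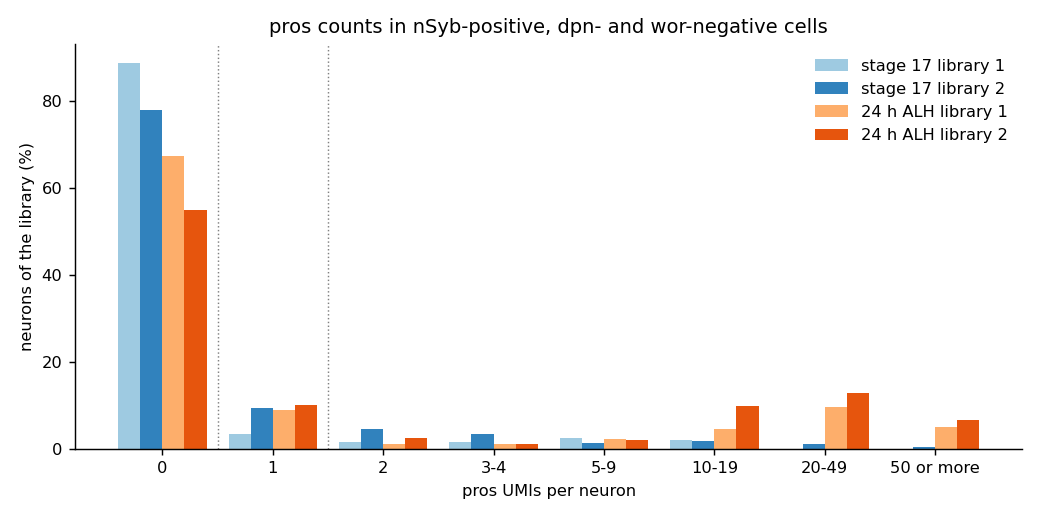
Share of neurons in each library (y axis, percent of the neurons of that library) by the number of *pros* UMIs per neuron (x axis, binned); bars are the 4 libraries and dotted lines bound the neurons with 1 UMI, left out of both groups. The 24 h ALH libraries have a second range of neurons at 10 or more UMIs, of which there are 8, 17 and 9 in the 3 highest bins of the first library and 36, 47 and 24 in those of the second.

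UMIs were summed over the neurons of each group and library, and edgeR's quasi-likelihood test was run on these sums with the library as a block. All adjusted p-values below are from this test with Benjamini-Hochberg adjustment over all genes tested, levels are CPM (counts scaled to library size) after TMM scaling unless another scale is named, and log2 fold changes are *pros*-positive over *pros*-negative neurons. At 24 h ALH, 1270 of 7001 genes passed an adjusted p of 0.05, or 18.1%, of which 474 (6.77%) were higher and 796 (11.4%) lower in *pros*-positive neurons. At stage 17, 36 of 5750 genes passed, or 0.626%, 30 of them (0.522%) higher and 6 (0.104%) lower. The median log2 fold change over all genes was -0.02 at 24 h ALH and 0.01 at stage 17. Of these calls, 1269 of 1270 at 24 h ALH and 31 of 36 at stage 17 moved the same way in both library pairs. The number at 24 h ALH was 1073 of 7382 genes in 1 fit over both stages. It was 411 of 2052 genes with each cell thinned to 1000 UMIs, and 467 without neurons that held a *Hey*, *ase* or *mira* UMI. At stage 17, no gene was called when *pros*-negative neurons were matched on depth, when neurons with a *repo* UMI were left out or when those with a *prt* UMI were left out (edgeR, with 218, 450 and 386 genes at an unadjusted p under 0.05, and DESeq2, run on all neurons only, called 30). The labels call the libraries biological replicates and do not say how these were made. With the library as a block, p-values measure how far the difference between *pros*-positive and *pros*-negative neurons varied over these library pairs.

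At 24 h ALH, *pros*-positive neurons had more RNA of genes of mushroom body Kenyon cells and of newborn neurons, and less RNA of synaptic, channel, receptor, peptide and Hox genes. Kenyon cells are the intrinsic neurons of the mushroom body, the centre for olfactory learning in the insect brain, and Hey marks newborn neurons in which Notch signalling is on. A list is described by its counts, to be read beside those over all genes, of which 6.77% rose and 11.4% fell at 24 h ALH.

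Of 13 genes of the Kenyon-like list tested, 9 rose in *pros*-positive neurons, none fell, and the median log2 fold change was 1.55. *prt* (FBgn0043005, 3R from 23696372 to 23699027), which encodes the putative vesicular transporter Portabella of mushroom body neurons, stood at 514 and 314 CPM in *pros*-positive and 3.41 and 3.71 CPM in *pros*-negative neurons. The groups were far apart in both libraries, at 6.78 on the log2 scale (standard error 0.25, adjusted p = 0.000494), the largest rise among genes that met the rule for naming. It was present in 14 of 42 and 26 of 127 *pros*-positive and in 3 of 120 and 3 of 200 *pros*-negative neurons, so that a minority of *pros*-positive neurons carried it. After thinning each cell to 1000 UMIs, 16.7% and 10.2% of *pros*-positive neurons kept a *prt* UMI, against 0 of 120 and 0 of 200 *pros*-negative neurons, which allows up to 3.03% and 1.83%. In *dpn*- and *wor*-positive cells, which should lack the gene, 3.94% and 1.60% held a *prt* UMI at medians of 71076.5 and 59292.5 UMIs, and none did after thinning.

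*mub* (FBgn0262737, 3L from 21844788 to 21932702), an RNA-binding protein first found in the mushroom body, stood at 2096 and 3250 CPM against 422 and 363, a rise of 2.74 (0.25, adjusted p = 0.00497). Both *pros*-positive sums lay above both *pros*-negative sums. *ey* (FBgn0005558, chromosome 4 from 697689 to 721173), the Pax6 factor that patterns the mushroom body, stood at 128 and 304 CPM against 14.6 and 9.08 (log2 fold change 4.11, standard error 0.60, adjusted p = 0.0451). *ey* was present in 23 of 42 and 93 of 127 *pros*-positive and in 14 of 120 and 13 of 200 *pros*-negative neurons, and in 23.3% and 24.6% of the deeper *dpn*- and *wor*-positive cells. At 1000 UMIs per cell these shares were 16.7% and 28.4%, 3.33% and 0%, and 0.342% and 1.34%, in the same order. *ey* was thus most frequent in *pros*-positive neurons at either depth. *dac*, a nuclear cofactor used with *ey*, stood at 253 and 456 CPM against 47.7 and 45.8 (2.87, adjusted p = 0.00496). The second Pax6 gene, *toy*, stood at 375 and 376 against 130 and 87.5 (1.82, adjusted p = 0.00424). Both were higher in each library. The call of *ey* was lost without neurons that held a *prt* UMI (3.85, adjusted p = 0.0959), as was that of *mub* (2.20, adjusted p = 0.159). With *pros*-negative neurons matched on depth, those of *ey* (4.03, adjusted p = 0.0809) and *dac* (3.15, adjusted p = 0.127) were lost with estimates of similar size.

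The receptors *Dop1R2* and *Dop1R1*, through which dopamine acts on Kenyon cells, also rose. *Dop1R2* stood at 341 and 217 CPM against 59.4 and 71.8 (2.05, adjusted p = 0.0108), and *Dop1R1* rose by 1.55 (adjusted p = 0.0335). These were the only 2 of 30 transmitter receptors tested to rise, and without neurons that held a *prt* UMI their estimates turned to -1.13 and -0.83. *sNPF*, a neuropeptide of Kenyon cells, stood at 472 and 212 CPM against 245 and 223 and did not pass (0.44, adjusted p = 0.36), and neither did the adhesion molecule *Fas2* (0.55, adjusted p = 0.256) or the phosphodiesterase *dnc* (0.37, adjusted p = 0.211). Summed over the list, Kenyon-like genes took 98.6 and 85.9 of each 10000 UMIs in *pros*-positive neurons and 33.7 and 33.9 in *pros*-negative neurons.

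Of 9 newborn neuron genes tested, 5 rose and 2 fell, with a median of 2.27. *Hey*, a Notch target of the basic helix-loop-helix family, stood at 180 and 250 CPM against 8.77 and 2.48 (5.30, standard error 0.60, adjusted p = 0.0258). It was present in 17 of 42 and 59 of 127 *pros*-positive neurons and in 8 of 120 and 5 of 200 *pros*-negative neurons, with 10.6% and 11.8% of the deeper *dpn*- and *wor*-positive cells. After thinning to 1000 UMIs, 7.14% and 15.0% of *pros*-positive neurons, 0% of *pros*-negative neurons and 0.685% and 1.87% of *dpn*- and *wor*-positive cells kept a *Hey* UMI. *Hey* was therefore rare in *pros*-negative neurons in both libraries. *nerfin-1*, a zinc finger factor that holds neurons in the differentiated state, stood at 138 and 131 CPM against 18.999 and 9.90 (3.27, adjusted p = 0.00344). *insb* rose by 2.68 (adjusted p = 0.0038) and *dap*, a cyclin-dependent kinase inhibitor that ends the cycle, by 2.27 (adjusted p = 0.00448). *lola*, a factor with many isoforms that keeps neurons from dedifferentiating, rose by 0.92 (adjusted p = 0.0124). *insb*, *dap* and *lola* were each higher in both libraries. Without neurons that held a *Hey*, *ase* or *mira* UMI the estimate of *dap* turned to -0.78. With *pros*-negative neurons matched on depth, *Hey* (4.77, adjusted p = 0.106) and *nerfin-1* (3.08, adjusted p = 0.109) were not called. The zinc finger genes *scrt* and *jim* fell by 1.10 (adjusted p = 0.007) and 1.02 (adjusted p = 0.0132).

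The Notch-responsive gene *E(spl)malpha-BFM* of the Enhancer of split complex stood at 58.9 and 181 CPM against 0.974 and 1.24 (6.68, standard error 0.35, adjusted p = 0.00158). Its neighbour *E(spl)m6-BFM* stood at 1481 and 3690 CPM against 94.0 and 6.60 and did not pass (6.17, standard error 2.67, adjusted p = 0.378). In the first library, 178 of the 193 *E(spl)m6-BFM* UMIs of *pros*-negative neurons came from 1 cell, and without that cell the level there was 7.37 in CPM of the cells' own UMIs, as against 1537 in *pros*-positive neurons. *E(spl)m6-BFM* was present in 22 of 42 and 78 of 127 *pros*-positive neurons and in 6 of 120 and 14 of 200 *pros*-negative neurons.

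Genes of stem cells and progenitors took 23.0 and 32.3 of each 10000 UMIs in *pros*-positive and 8.08 and 6.543 in *pros*-negative neurons. Of 17 tested, 3 rose and none fell, with a median of 1.34. *ase*, a proneural factor of NSCs, stood at 24.3 and 8.90 CPM against 2.44 and 1.65 (2.89, adjusted p = 0.0162). The Snail family gene *esg* rose by 2.43 (adjusted p = 0.00503) and *brat*, a translational repressor segregated to the ganglion mother cell, stood at 1012 and 1122 CPM against 484 and 418 (1.25, adjusted p = 0.00702, but 0.19 with an adjusted p of 0.573 without neurons that held a *Hey*, *ase* or *mira* UMI). *mira*, which carries Prospero at division, stood at 15.6 and 16.2 CPM against 11.2 and 9.90 (0.60, adjusted p = 0.244), so that the groups did not differ beyond the spread. Of 13 genes of asymmetric division, 3 rose, *brat* among them with the cortical adaptor *pon* (1.74, adjusted p = 0.0326) and the polarity gene *baz* (1.65, adjusted p = 0.0293), while the kinase gene *aPKC* fell by 0.95 (adjusted p = 0.03). Of 21 cell cycle genes, the mitotic kinase *Cdk1* (2.15, adjusted p = 0.0071) and the cyclins *CycB* (2.04, adjusted p = 0.0417) and *CycB3* (2.01, adjusted p = 0.0248) rose, each from levels at or under 52.0 CPM. The call of *CycB* was lost in 10 of 17 alternatives and those of *CycB3*, *pon* and *baz* in 5 of 15, 5 of 15 and 6 of 18. These 4 calls and those of *ase* and *Cdk1* were lost when either 24 h ALH library was left out, and the estimate of *baz* was 0.099 without neurons that held a *Hey*, *ase* or *mira* UMI. Leaving out a library was tried in 1 fit over both stages, where the calls of *CycB*, *CycB3* and *pon* were lost with every library kept. Cells with a UMI of *Hey*, *ase* or *mira* made up 25 of 42 and 69 of 127 *pros*-positive neurons, and 28 of 120 and 32 of 200 *pros*-negative neurons.

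**Figure D2:**
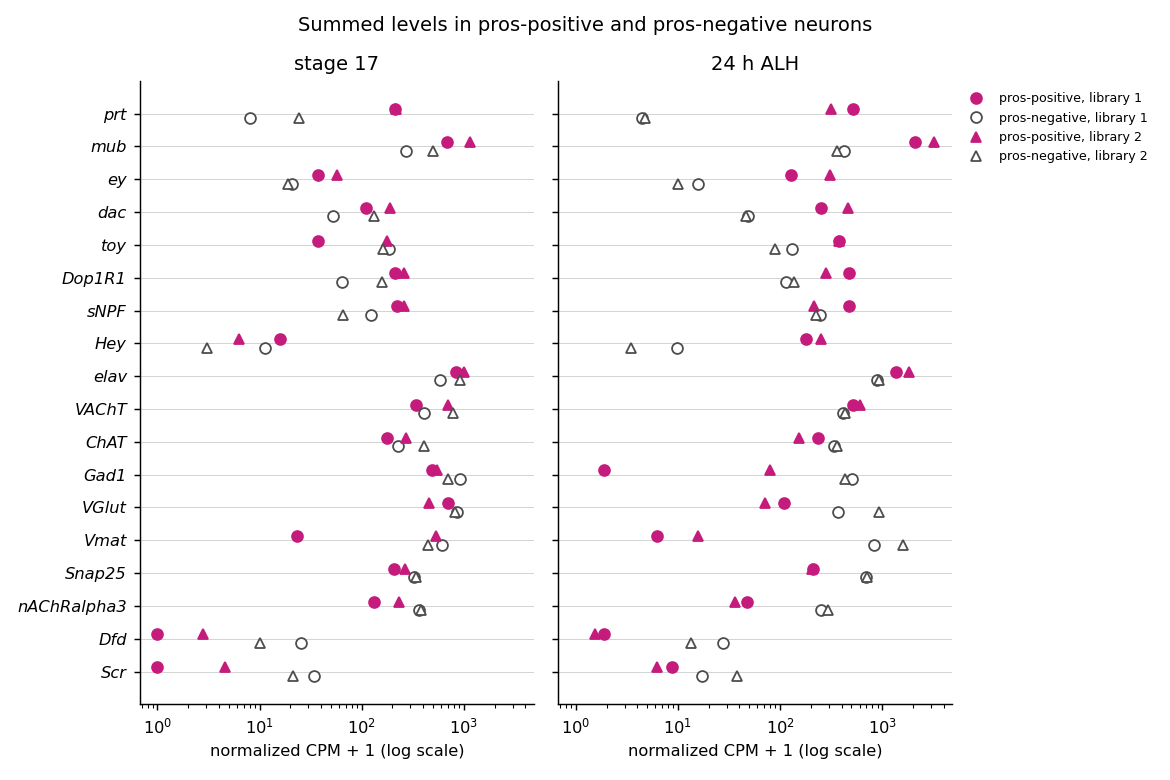
Levels of named genes at 24 h ALH and stage 17 (log axis, CPM after TMM scaling with 1 added) in *pros*-positive and *pros*-negative neurons, 1 point per library. Before that addition, the points of *prt* lie at 514 and 314 CPM against 3.41 and 3.71 at 24 h ALH and at 213 and 214 against 7.14 and 23.3 at stage 17.

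Among genes with at least 100 CPM in the higher group, the other largest rises at 24 h ALH were in transcription factors and in 1 actin regulator. *sals*, which lengthens actin filaments in muscle sarcomeres, stood at 240 and 99.4 CPM against 1.46 and 1.65 (6.61, standard error 0.34, adjusted p = 0.00158). *tll*, an orphan nuclear receptor, stood at 59.8 and 141 against 1.46 and 1.65 (5.95, standard error 0.33, adjusted p = 0.00158). *Hr51*, a nuclear receptor needed for axon pruning and regrowth in mushroom body neurons, stood at 208 and 421 against 6.33 and 3.71 (5.93, standard error 0.46, adjusted p = 0.00712). The groups were far apart for each of them. The homeobox gene *Vsx1* rose by 3.85 (adjusted p = 0.00158) and the NF-kappaB family gene *Dif* by 3.76 (adjusted p = 0.00231), from *pros*-negative levels of 7.31 to 14.9 CPM. Of 32 neuron subtype factors tested, 5 rose and 7 fell. Besides *ey*, *dac* and *toy*, the LIM-homeodomain gene *ap* rose by 1.69 (adjusted p = 0.0171) and the basic helix-loop-helix gene *Oli* by 1.23 (adjusted p = 0.00665). The call of *ap* was lost in 7 of 18 alternatives, with an estimate as low as 0.16, and that of *Oli* in 3 of 20. Among those that fell were the POU gene *vvl*, at 84.0 and 69.1 CPM against 411 and 393 (-2.40, adjusted p = 0.00231), and the homeobox gene *HGTX* (-2.61, adjusted p = 0.013).

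Transcripts of mature neuronal function were lower in *pros*-positive neurons. Of 22 pan-neuronal and release genes, 12 fell and 1 rose, with a median of -0.67. *Snap25*, a SNARE protein of vesicle fusion, stood at 211 and 204 CPM against 697 and 714 (-1.77, standard error 0.16, adjusted p = 0.00363). *nrv3*, a subunit of the neuronal sodium pump, stood at 2547 and 2186 against 5814 and 6092 (-1.33, adjusted p = 0.00424). *Fife*, an active zone protein, fell by 1.26 (adjusted p = 0.00572) and *Syn*, the vesicle protein Synapsin, by 1.24 (adjusted p = 0.00654). The calls of *Fife* and *Syn* were lost when cells were thinned to 1000 UMIs (adjusted p = 0.0577 and 0.0615) and without neurons that held a *Hey*, *ase* or *mira* UMI, where their estimates were -0.27 and -0.48, while those of *Snap25* and *nrv3* held in all 20 alternatives with estimates as small as -0.92 and -0.62. Neither library's *pros*-positive sum reached a *pros*-negative sum for *Snap25* or *nrv3*. The gene that rose was *elav*, an RNA-binding protein of neurons from birth, at 1371 and 1839 CPM against 881 and 924 (0.82, adjusted p = 0.0219, but 0.24 with an adjusted p of 0.344 without neurons that held a *Hey*, *ase* or *mira* UMI). The active zone gene *brp* stood at 414 and 443 CPM against 493 and 615 and did not pass (-0.36, adjusted p = 0.173).

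Of 22 ion channel genes tested, 16 fell and none rose, with a median of -1.13. The potassium channel gene *eag* (-1.83, adjusted p = 0.00363) and the calcium channel gene *Ca-alpha1T* (-1.78, adjusted p = 0.00371) fell most among these with *sif*, an exchange factor that the list also holds (-1.78, adjusted p = 0.00448), and *Hk*, a potassium channel beta subunit, stood at 94.4 and 96.3 CPM against 284 and 348 (-1.72, adjusted p = 0.00371). The counts of *sif* are uncertain because it overlaps other counted genes on the same strand. The same holds for *lola*, *mira* and *dnc* above and for *Hr3* and *CG34402* below. Of 30 transmitter receptors, 19 fell, with a median of -1.13. The nicotinic acetylcholine receptor subunit *nAChRalpha3* stood at 46.8 and 35.1 CPM against 250 and 291 (-2.74, standard error 0.21, adjusted p = 0.00314), *nAChRalpha7* fell by 2.03 (adjusted p = 0.00296) and the serotonin receptor *5-HT1A*, at 83.2 and 79.0 CPM against 331 and 318, fell by 2.00 (adjusted p = 0.00296). The *pros*-positive sums of these genes were below the *pros*-negative sums in both libraries.

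Genes of transmitter identity were mixed. Of 14 tested, 5 fell and *prt* alone rose. *Vmat*, the vesicular transporter of monoamine neurons, had the largest fall among genes that met the rule for naming, at 5.20 and 14.7 CPM against 835 and 1603 (-6.95, standard error 0.24, adjusted p = 0.000494), but it was present in only 7 of 120 and 19 of 200 *pros*-negative neurons. A single cell held 553 of the 1714 *Vmat* UMIs in the first library and 2376 of 3886 in the second. *Tdc2*, which makes tyramine, had no UMI in *pros*-positive neurons and 27 and 221 in *pros*-negative ones, at least 55.0-fold lower against a floor of 3 UMIs over the group, but these UMIs came from 1 and 3 cells. *Tbh*, which makes octopamine from tyramine, fell by 4.01 (adjusted p = 0.00231). The falls of *Vmat* and *Tdc2* thus rest on few *pros*-negative cells. *Vmat* was not called in 1 fit over both stages with every library kept. Nor was it called in that fit when either 24 h ALH library was left out, with estimates of -6.72 and -7.32. It was also not called without neurons that held a *Hey*, *ase* or *mira* UMI (adjusted p = 0.164).

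*VGAT*, the vesicular GABA transporter, stood at 17.3 and 33.0 CPM against 84.3 and 92.8 (-1.83, adjusted p = 0.00814). *Gad1*, which makes GABA, stood at 0.866 and 79.0 CPM against 505 and 434, with the *pros*-positive libraries far apart, and its difference did not pass (-3.92, standard error 1.94, adjusted p = 0.405). It was present in 1 of 42 and 13 of 127 *pros*-positive neurons, as against 34 of 120 and 59 of 200. *Gad1* was thus rarer in *pros*-positive neurons in both libraries without passing the test. *VGlut*, the glutamate transporter, stood at 109 and 70.7 CPM against 372 and 934 (-2.76, adjusted p = 0.148). *VAChT*, the acetylcholine transporter, stood at 522 and 603 CPM against 416 and 427 (0.41, adjusted p = 0.126), and *ChAT*, which makes acetylcholine, at 232 and 153 against 339 and 359 (-0.89, adjusted p = 0.0349). *VAChT* and *ChAT* lie in 1 locus on the same strand, so that their counts are uncertain. A *VAChT* UMI was present in 41 of 42 and 111 of 127 *pros*-positive neurons, as against 74 of 120 and 112 of 200 *pros*-negative neurons and 17.0% and 11.0% of *dpn*- and *wor*-positive cells. After thinning to 1000 UMIs the shares were 33.3% and 44.9%, 22.5% and 28.0%, and 1.37% and 1.07%, highest in *pros*-positive neurons in both libraries.

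Hox genes, which give segment identity along the body axis, were low in *pros*-positive neurons. Of 7 tested, 4 fell and none rose, with a median of -3.39. *abd-A* stood at 12.1 and 12.04 CPM against 111 and 164 (-3.51, standard error 0.24, adjusted p = 0.00231) and was present in 2 of 42 and 7 of 127 neurons, as against 29 of 120 and 61 of 200. *Dfd* (-4.62, adjusted p = 0.00503), *pb* (-2.70, adjusted p = 0.00448) and *Scr* (-2.03, adjusted p = 0.0415) also fell. *Ubx* stood at 58.9 and 12.6 CPM against 300 and 327 (-3.39, adjusted p = 0.144), *Antp* at 15.6 and 112 against 175 and 337 (-2.29, adjusted p = 0.13) and *Abd-B* at 4.33 and 17.3 against 153 and 102 (-3.44, adjusted p = 0.0785), none of which passed. All 3 that did not pass were unequal between the *pros*-positive libraries.

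Of 23 temporal and hormone-response genes, 2 rose and 6 fell, beside 6.77% and 11.4% of all genes. The POU genes *nub* and *pdm2*, temporal factors of NSCs that some neurons keep, were nearly absent. *nub* had 0 and 5 UMIs against 109 and 103 (-4.82, adjusted p = 0.0143), and *pdm2* had none, at least 8.87-fold lower against the floor of 3 UMIs over the group. *Kr* (-1.76, adjusted p = 0.00807) and *svp* (-1.54, adjusted p = 0.0191, with uncertain counts because of same-strand overlaps) fell, and the BTB zinc finger gene *ab* (1.25, adjusted p = 0.00778, but -0.94 without neurons that held a *prt* UMI) and the hormone receptor gene *Hr3* (1.05, adjusted p = 0.0196) rose. Early-born neurons of larval lineages carry *Imp* and *chinmo*. Neither differed beyond the spread, *Imp* at 2880 and 2175 CPM against 3365 and 3192 (-0.39, adjusted p = 0.12) and *chinmo* at 1985 and 3490 against 2051 and 2254 (0.29, adjusted p = 0.345). The ecdysone-response gene *br* stood at 787 and 1195 CPM against 495 and 368 (1.19, adjusted p = 0.0627).

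Of 35 guidance and adhesion genes, 9 fell and 3 rose, the latter a share near the 6.77% of all genes. *NetA*, a secreted guidance cue, rose by 2.37 (adjusted p = 0.00845), *trn* by 0.98 (adjusted p = 0.0136, with an estimate of -0.93 without neurons that held a *Hey*, *ase* or *mira* UMI) and *Sema1a* by 0.74 (adjusted p = 0.0366). *Dscam3*, an immunoglobulin family receptor, stood at 9.53 and 9.42 CPM against 71.1 and 76.3 (-2.96, adjusted p = 0.00314), and *beat-Ia*, a receptor of motor axon guidance, fell by 2.51 (adjusted p = 0.00908). Outside the list, the immunoglobulin gene *DIP-beta* stood at 11.3 and 13.6 CPM against 144 and 99.4 (-3.22, adjusted p = 0.0034, uncertain through overlap with CG10918), the innexin *shakB* at 58.9 and 74.8 against 414 and 488 (-2.75, adjusted p = 0.00158, also overlapped), the bone morphogenetic protein regulator *cmpy* at 59.8 and 54.4 against 422 and 393 (-2.83, adjusted p = 0.00158) and the ligand *Wnt4* at 39.9 and 26.2 against 230 and 167 (-2.60, adjusted p = 0.00231). These 4, with *CG43795*, *CG1402* and *CG3009* at -2.99, -2.67 and -2.57, complete the 10 largest falls with *Vmat*, *abd-A* and *nAChRalpha3*.

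Of 16 peptide and peptide-processing genes, 5 fell and none rose. The precursor *Nplp1* fell by 3.18 (adjusted p = 0.00448) and the diuretic hormone *Dh44* by 1.63 (adjusted p = 0.00702). The processing genes *7B2* (-0.90, adjusted p = 0.0191), *svr* (-0.89, adjusted p = 0.0147) and *Pal2* (-0.85, adjusted p = 0.0171) fell less. In the same order, their calls were lost in 5, 7 and 7 of 20 alternatives, with estimates as small as -0.088, -0.105 and -0.0054. Leaving out neurons that held a *Hey*, *ase* or *mira* UMI was among these for each of them. Of 7 activity-response genes, *sr* (-1.99, adjusted p = 0.0135), *Hr38* (-1.44, adjusted p = 0.0223) and *cbt* (-1.33, adjusted p = 0.0171) fell and *Jra* rose (1.09, adjusted p = 0.0304).

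**Figure D3:**
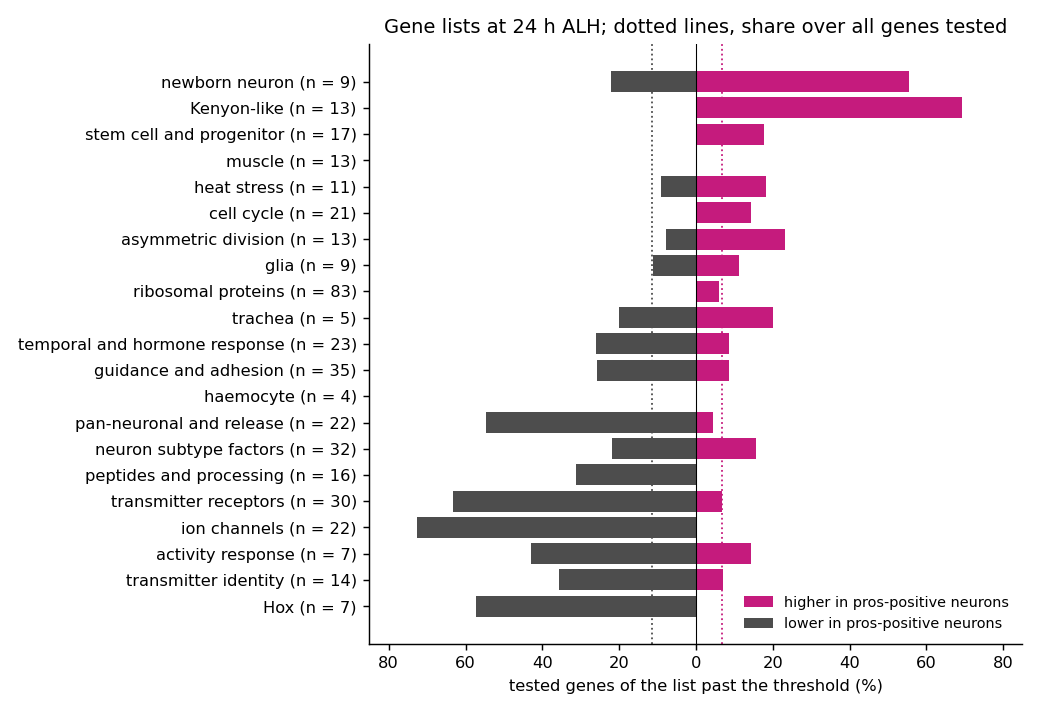
Share of the tested genes of each list that passed the threshold at 24 h ALH (x axis, percent), higher in *pros*-positive neurons to the right and lower to the left; n is the number of list genes tested and dotted lines mark the 6.77% and 11.4% of all genes. The Kenyon-like list has 9 of 13 genes higher and none lower, and the ion channel list 16 of 22 lower and none higher.

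Few *pros*-positive neurons held UMIs of both *prt* and *Hey*. A split of the cells by these 2 genes was chosen after their values were seen, so it is a description with no test, and levels in it are CPM of the cells' own UMIs. At 24 h ALH, *prt* but not *Hey* was present in 12 and 20 neurons, *Hey* but not *prt* in 15 and 53, both in 2 and 6, and neither in 13 and 48. *Hey* was absent from 25 of 42 and 68 of 127 *pros*-positive neurons, so most *prt* neurons would lack it even if the genes were unrelated. Whether they overlapped less than their frequencies give was not tested. Median depths were 19771 and 9694.5 UMIs in neurons with *prt* only, 29375 and 12950 with *Hey* only, and 12360 and 8558.5 with neither. The few neurons with both were the deepest, at medians of 40061 and 18794.

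*sals* was present in 11 of 12 and 18 of 20 neurons with *prt* only and in 0 of 15 and 0 of 53 with *Hey* only. *sNPF* was present in 11 of 12 and 17 of 20 of the first kind and in 1 of 15 and 0 of 53 of the second. *Dop1R2* followed them, in 9 of 12 and 17 of 20 against 1 of 15 and 3 of 53, as did *Dop1R1*, in 11 of 12 and 18 of 20 against 4 of 15 and 7 of 53. Of all *pros*-positive neurons with *sals*, 13 of 13 and 23 of 26 also held *prt*.

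Several newborn neuron genes, and *tll* and *E(spl)malpha-BFM* from outside that list, showed the reverse. *tll* was present in 0 of 12 and 0 of 20 neurons with *prt* only and in 7 of 15 and 34 of 53 with *Hey* only. *E(spl)malpha-BFM* was likewise absent from the first and present in 10 of 15 and 29 of 53 of the second, as was *dap*, in 10 of 15 and 29 of 53. *insb* was absent from the first and present in 9 of 15 and 17 of 53 of the second. *nerfin-1* was present in 2 of 12 and 1 of 20 neurons with *prt* only and in 11 of 15 and 32 of 53 with *Hey* only.

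Other genes were common to both kinds of neuron. *ey* was present in 10 of 12 and 18 of 20 neurons with *prt* only, in 7 of 15 and 47 of 53 with *Hey* only and in 4 of 13 and 22 of 48 with neither, as against 14 of 120 and 13 of 200 *pros*-negative neurons. *Hr51* was present in 10 of 12 and 18 of 20, in 9 of 15 and 47 of 53, and in 3 of 13 and 22 of 48. In the same order, *dac* was present in 10 of 12 and 18 of 20, in 10 of 15 and 44 of 53, and in 6 of 13 and 29 of 48. Of the *pros*-positive neurons with *ey*, 21 of 23 and 86 of 93 also held *dac*.

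*Snap25* and *nrv3* were lowest in the neurons with *Hey* only. *Snap25* stood at 348 and 263 CPM with *prt* only, 113 and 48.9 with *Hey* only, 310 and 471 with neither and 682 and 697 in *pros*-negative neurons. *nrv3* stood at 3758 and 3094 with *prt* only, 1423 and 1012 with *Hey* only, 3681 and 3997 with neither and 5696 and 5947 in *pros*-negative neurons. *elav* ran the other way, at 846 and 962 with *prt* only and 1896 and 2508 with *Hey* only and 1031 and 1112 with neither, against 863 and 902 in *pros*-negative neurons. *pros* itself stood at 2254 and 1532 with *prt* only, 703 and 2149 with *Hey* only and 2198 and 3384 with neither. The order of these 3 kinds by *pros* level differed between the libraries.

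**Figure D4:**
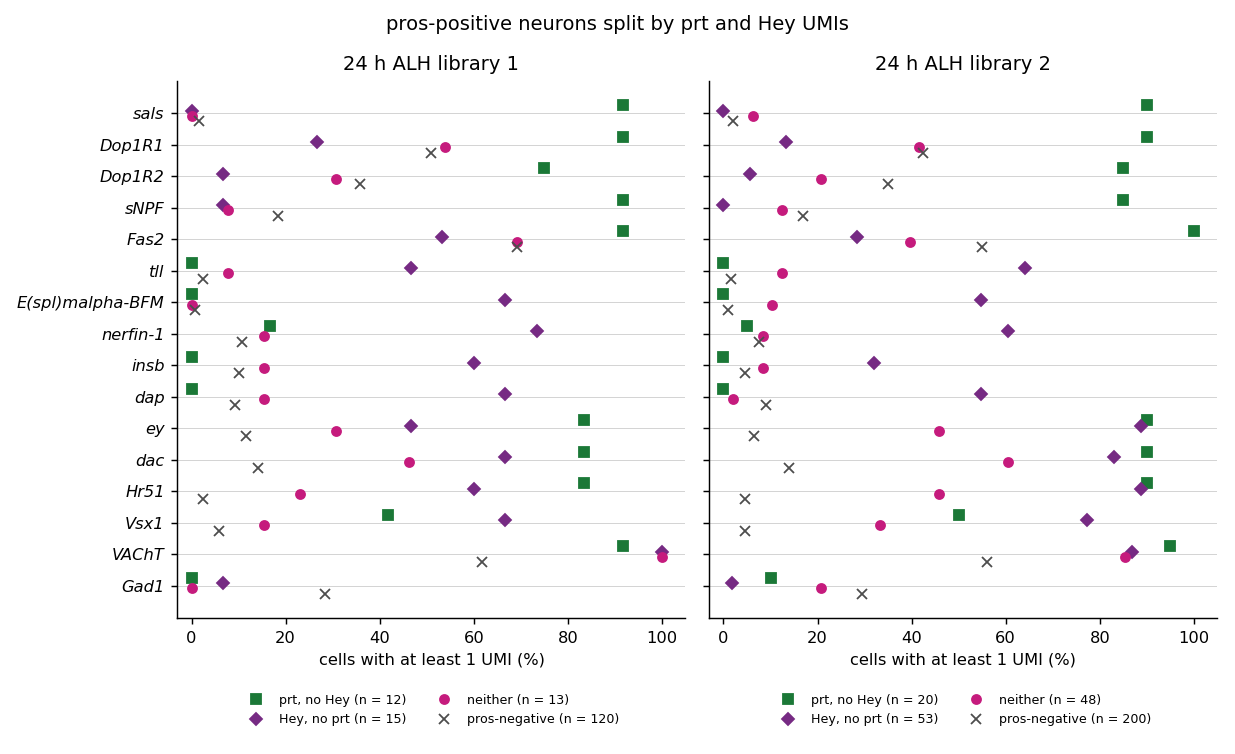
Percent of neurons at 24 h ALH with a UMI of each gene, by library, in *pros*-positive neurons with *prt* only, *Hey* only or neither and in *pros*-negative neurons. *sals* and *sNPF* are seen with *prt*, *tll* and *nerfin-1* with *Hey*, and *ey*, *Hr51* and *dac* with both.

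At stage 17 the difference was small in number of genes. *prt* stood at 213 and 214 CPM in *pros*-positive and 7.14 and 23.3 CPM in *pros*-negative neurons (3.72, standard error 0.40, adjusted p = 0.00612). Both *pros*-positive sums were above both others, and *prt* was present in 4 of 19 and 20 of 122 *pros*-positive neurons against 6 of 214 and 46 of 765. After thinning to 1000 UMIs the shares were 21.1% and 4.92% against 1.44% and 0.654%, with 0 of 33 and 0 of 42 *dpn*- and *wor*-positive cells. In the first library, 21 *prt* UMIs lay in 2 of the 4 neurons at 2 *pros* UMIs, and 8 in 2 of the 15 with 3 or more. As CPM of the cells' own UMIs, *prt* in these neurons stood at 1512 and 67.2. In the second library it stood at 72.2 with 2 *pros* UMIs and 261 with 3 or more. *mub* stood at 682 and 1145 CPM against 271 and 493 (1.27, standard error 0.20, adjusted p = 0.0217). The call of *prt* was lost in 5 of its 19 alternatives, among them depth matching (3.97, adjusted p = 0.857), and that of *mub* in 11 of 20, with 0.51 without neurons that held a *prt* UMI. These were the only 2 of 13 Kenyon-like genes to pass at stage 17, where *ey* stood at 36.7 and 56.9 CPM against 19.8 and 17.9 (1.43, adjusted p = 0.263) and *Dop1R1* at 213 and 260 against 63.5 and 156 (1.16, adjusted p = 0.162).

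Of the 36 genes called at stage 17, 26 were tested at 24 h ALH and 8 were called there too, all in the same direction. That is 30.8% of those 26, beside 18.1% of all genes tested at 24 h ALH, and 0.630% of the 24 h ALH calls. Besides *prt* and *mub* these were *jdp*, *Nep1*, *CG34402*, *CG11191*, *CG9628* and *Burs*. *jdp*, a DnaJ-family gene, stood at 1071 and 1316 CPM against 417 and 498 at stage 17 (1.38, adjusted p = 0.0128) and at 4962 and 2383 against 683 and 726 at 24 h ALH (2.29, adjusted p = 0.0343). *Nep1*, a neprilysin-family peptidase, rose by 2.02 at stage 17 (adjusted p = 0.0217) and by 1.88 at 24 h ALH (adjusted p = 0.00918). Without neurons that held a *prt* UMI, the estimates of *jdp* were -0.47 at stage 17 and -0.94 at 24 h ALH, and that of *Nep1* at 24 h ALH was -1.92, so that the direction of these 2 genes turned. *Burs*, a subunit of the hormone bursicon, stood at 0 and 16.9 CPM against 99.2 and 122 at stage 17 (-3.12, adjusted p = 0.0171) and fell by 5.36 at 24 h ALH (adjusted p = 0.00371).

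In part of the stage 17 calls, 1 cell held most of the UMIs. Of the 30 genes that rose, 13 had over 50% of the *pros*-positive UMIs in 1 cell, as did, in *pros*-negative neurons, 3 of the 6 that fell. This held for 2 of 474 and 4 of 796 genes at 24 h ALH. *bt*, a giant muscle kinase, stood at 14.7 and 419 CPM against 0.793 and 72.0 (2.64, adjusted p = 0.0128), with 330 of 471 UMIs of the second library in 1 cell. *sls*, the titin-like muscle protein, was at 0 and 265 CPM against 2.38 and 39.8 (2.59, adjusted p = 0.0321), with 215 of 298 UMIs in 1 cell and an estimate of -4.99 without the second stage 17 library. Uncharacterised genes were of the same kind. *CG13678* and *CG13069* had 155 of 156 and 172 of 173 UMIs of the first library in 1 cell, and *CG12519* had its 55 UMIs of that library in 1 cell. Of the genes that fell, *CG13056* (-3.74, adjusted p = 0.00555, but 0.40 without neurons that held a *prt* UMI) had 885 of 1643 UMIs of the second library in 1 cell, and the peptide *FMRFa* (-3.04, adjusted p = 0.0321) 687 of 863. The transcription factor *fkh*, at 227 and 66.7 CPM against 53.9 and 18.6 (1.94, adjusted p = 0.0171), *Swim* (2.13, adjusted p = 0.0321), *CG4928* (2.16, adjusted p = 0.039), *CG42749* (2.04, adjusted p = 0.0389) and *CG9628* (1.47, adjusted p = 0.039) complete the genes that the rule names. In this order, their stage 17 calls were lost in 10 of 19, 14 of 20, 11 of 18, 11 of 16 and 15 of 20 alternatives.

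Genes of neuronal function were not called at stage 17, which by itself does not show a difference from 24 h ALH. None of 22 pan-neuronal and release genes passed, with 20 estimates below 0 and a median of -0.23, and neither did any of 30 transmitter receptors, with 27 estimates below 0 and a median of -0.34, or of 23 ion channels, with a median of -0.26. By edgeR's unadjusted p under 0.05, 2, 4 and 1 genes of these lists passed, and DESeq2 called 0 of each. *Snap25* stood at 205 and 264 CPM against 325 and 340 (-0.49, adjusted p = 0.695). *Hey* was at 14.7 and 5.33 CPM against 10.3 and 2.06 (1.05, adjusted p = 0.845), from 2 and 4 *pros*-positive neurons. The transmitter genes *VAChT* (-0.21, adjusted p = 0.957), *Gad1* (-0.63, adjusted p = 0.348) and *VGlut* (-0.58, adjusted p = 0.427) did not differ beyond the spread. In the second stage 17 library, 61 of 122 *pros*-positive neurons held UMIs of both *Gad1* and *VGlut*, and in *dpn*- and *wor*-positive cells of that library 59.5% held *Gad1* and 50% *VGlut*, so that presence of these transcripts in a cell was not specific there.

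Whether an effect differed between the stages was tested as the difference of the *pros* effects over all 8 sums (stage 17 minus 24 h ALH). Of 7382 genes, 89 passed, or 1.21%, of which 76 (1.03%) had the higher effect at stage 17 and 13 (0.176%) the higher effect at 24 h ALH. *abd-A* stood at 541 and 392 CPM in *pros*-positive and 405 and 533 CPM in *pros*-negative neurons at stage 17, with no separation, as against the fall at 24 h ALH, a difference of 3.48 (standard error 0.38, adjusted p = 0.00318). *Wnt4* was likewise at 618 and 605 CPM against 632 and 536 at stage 17 (difference 2.70, adjusted p = 0.00309). *DIP-beta* (3.35, adjusted p = 0.00309), the peptide receptor *FMRFaR* (3.13, adjusted p = 0.00552) and the homeobox gene *Hmx* (3.03, adjusted p = 0.0492) completed the largest of this direction among genes that met the rule for naming. For *Hmx* the fitted effect was 1.48 at stage 17 and -1.55 at 24 h ALH. The call of *Hmx* was lost in 12 of 18 alternatives and those of *DIP-beta* and *FMRFaR* in 7 of 19 each, matching on depth and leaving out the second stage 17 library among them.

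In the other direction, *Hr51* stood at 70.2 and 20.5 CPM against 21.0 and 17.4 at stage 17, an effect of 0.77 beside 5.89 at 24 h ALH (difference -5.12, standard error 0.75, adjusted p = 0.0492). Its call was lost in 9 of 19 alternatives, over which the estimate ran from -6.95 to -1.60. *Vsx1* stood at 21.1 and 31.1 against 38.8 and 27.3 at stage 17 (difference -3.90, adjusted p = 0.00309). *lbm*, a tetraspanin of growing motor axons, stood at 751 and 434 CPM against 672 and 513 at stage 17 and at 178 and 368 against 31.0 and 45.2 at 24 h ALH (difference -2.83, adjusted p = 0.00309). *sals* (-3.55, adjusted p = 0.0355, but 1.42 without neurons that held a *prt* UMI) and *Dif* (-2.42, adjusted p = 0.025) rose more at 24 h ALH, with calls lost in 9 of 19 and 8 of 18 alternatives. Of the Kenyon-like genes, *dac* passed this test (-2.17, adjusted p = 0.0347). None of 23 pan-neuronal and release, 10 newborn neuron or 17 stem cell and progenitor genes passed it. DESeq2 called 3 of the first list, 1 higher and 2 lower of the second and 1 of the third. For these lists a difference between the stages was thus not shown by the main test. Of 30 transmitter receptors 3 passed, as did 3 of 23 ion channels, beside 1.21% of all genes. No gene passed this test without the block (edgeR, 587 at an unadjusted p under 0.05), 132 passed by DESeq2, and 23, 19, 278 and 178 passed without each library in turn (stage 17 libraries first). Depth differs between the stages, and 43 of 2590 genes passed with every cell thinned to 1000 UMIs, 17 of 2521 with groups set after thinning and 1 of 6818 with *pros*-negative neurons matched on depth. Chemistry differs between the stage 17 libraries, and its part was not tested beyond the fits without each of them.

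**Figure D5:**
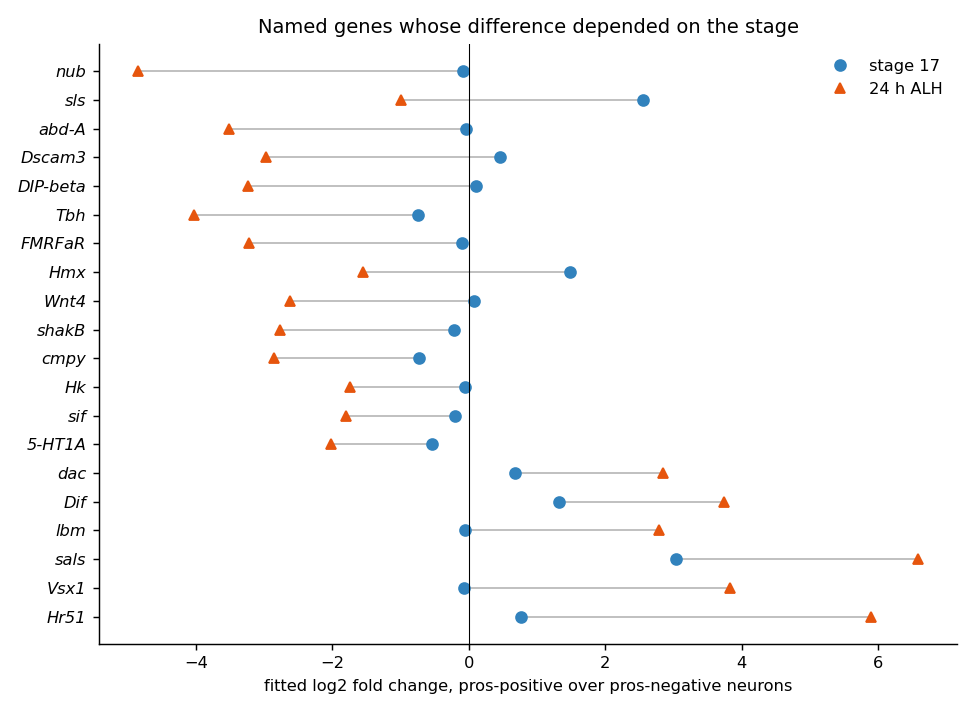
Fitted log2 fold changes of *pros*-positive over *pros*-negative neurons (x axis) at stage 17 (circles) and 24 h ALH (triangles) for named genes whose effects differed between the stages. *abd-A* and *Wnt4* lie near 0 at stage 17 and at -3.52 and -2.62 at 24 h ALH, and *Hr51* at 0.77 and 5.89.

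Markers of other cell types were summed in both groups. The glial factor *repo* was present in 0 and 9 *pros*-positive and 5 and 28 *pros*-negative neurons at stage 17, and in 1 and 2 against 3 and 2 at 24 h ALH. Glial genes together took 11.5 and 19.1 of each 10000 UMIs in *pros*-positive neurons at stage 17 against 15.9 and 12.6, with 31.3% of the second value from 1 cell, and no gene was called at stage 17 without neurons that held a *repo* UMI (edgeR, 450 at an unadjusted p under 0.05). They took 9.24 and 13.03 of each 10000 UMIs in *pros*-positive neurons at 24 h ALH against 6.85 and 3.26, of which *Nrt*, a surface protein that neurons also carry, rose (435 and 601 CPM against 126 and 88.7, log2 fold change 2.28, adjusted p = 0.0114), and *Tret1-1* fell (-4.003, adjusted p = 0.0335). Muscle genes took 1.20 and 20.9 per 10000 in *pros*-positive neurons at stage 17 against 2.40 and 9.66, and all 14 tested had estimates above 0 there, 2 of them called. Their sum at 24 h ALH was 5.96 and 4.08 against 0.525 and 4.69, with 91.4% of the first value from 1 cell, and none of 13 was called (edgeR, 1 at an unadjusted p under 0.05, DESeq2 0). Tracheal and haemocyte genes each took at most 1.80 per 10000 in any sum.

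Heat stress genes took 82.9 and 28.8 per 10000 in *pros*-positive neurons at stage 17 against 55.9 and 27.9, and 87.4 and 122.7 at 24 h ALH against 75.3 and 65.6, where *Hsp83* (0.83, adjusted p = 0.0385) and *Hsp70Bc* (0.83, adjusted p = 0.0402) rose and the cochaperone gene *stv* fell (-1.18, adjusted p = 0.00665). Ribosomal protein genes took 2164 and 2246 per 10000 at 24 h ALH against 1773 and 1747, and 1717 and 1139 at stage 17 against 1321 and 983. At 24 h ALH, 82 of 83 ribosomal protein genes had estimates above 0, with a median of 0.26. Of the 83, 5 were called higher, a share near the 6.77% of all genes. The largest were *RpL38* (0.70, adjusted p = 0.0257) and *RpL28* (0.65, adjusted p = 0.0262). At stage 17, 83 of 84 were above 0, with a median of 0.29 and none called (edgeR, 7 at an unadjusted p under 0.05, DESeq2 0). The part of heat stress genes and of ribosomal protein genes in the differences of other genes was not tested.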

How the data were processed

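Cells with GFP driven by *wor*-GAL4 were sequenced with the 10x Chromium 3' method in 2 stage 17 and 2 24 h ALH libraries. The deposited counts are UMIs of 14240 genes in each called cell, which the authors made with Cell Ranger (version 3.0.2 in the matrix headers, 3 in the submitters' notes) on dm6 and not normalized. Positions are from BDGP6.54.

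The cell filter was 200 to 6000 genes and no more than 5% mitochondrial UMIs. Neurons, *pros*-positive and *pros*-negative groups, and all members and gene lists were chosen with earlier results of these data known. Raw counts were summed per library and group and tested with edgeR 4.0.16 in R 4.3.3 (TMM factors, filterByExpr, robust quasi-likelihood test, library as block, Benjamini-Hochberg adjusted p under 0.05), each stage apart. The difference between the stages was an interaction over all 8 sums. *pros*, *nSyb*, *dpn* and *wor* were left out. The library pairs the groups because both were taken from it. Library differences in the 2 groups correlated at 0.439 over 5750 genes at stage 17 and at 0.483 over 7001 at 24 h ALH. Scripts were tested on simulated data. An exact permutation test of 2 pairs cannot go below a two-sided p of 0.5.

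Genes were named where they passed, moved the same way in both pairs and reached 100 CPM, the 10 largest per direction and stage and 5 for the stage difference, together with members of 21 lists that passed (all up to 6, otherwise the 4 largest) and well-known members that did not. 6 list symbols matched no gene. *jdp*, *Nep1*, *CG34402* and *CG11191* at stage 17, and *Hey* and *prt* as a split of cells, were chosen after their values were seen. Alternatives were RLE size factors, no filter, DESeq2 1.42.0, no block, 1 fit over both stages, leaving out each library, other *pros* and *nSyb* thresholds, thinning to 1000 UMIs, depth matching, and leaving out doublets (Scrublet in scanpy 1.11.5), *repo* cells or *Hey*, *ase* and *mira* cells. Leaving out shared barcodes and *prt* cells was added after seeing the data. Doublets stay in the main result. Shares are given with exact 95% binomial intervals, and a count of 0 was taken to allow 3 UMIs. The authors' cell annotation was not used here. Python 3.11.15, numpy 2.4.6, scipy 1.17.1, pandas 2.3.3 and matplotlib 3.10.9 were used.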

Additional observations from a re-analysis of the deposited data

Results flagged for a closer look

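The effect of *pros* status differed between stage 17 and 24 h ALH for 89 genes by the test of the difference itself (edgeR's quasi-likelihood test over all 8 sums, Benjamini-Hochberg adjusted p under 0.05), and 20 of them are named here with the effect at stage 17 minus that at 24 h ALH on the log2 scale. Values above 0 mean a higher effect at stage 17.

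The Hox gene *abd-A* differed by 3.48, the POU gene *nub* by 4.76 and the homeobox gene *Hmx* by 3.03. Surface molecules of this direction were *DIP-beta* at 3.35, *Dscam3* at 3.43 and *shakB* at 2.56, of which *DIP-beta* and *shakB* overlap other counted genes. Signalling genes were *FMRFaR* at 3.13, *Wnt4* at 2.70, *cmpy* at 2.12 and *5-HT1A* at 1.47. *Tbh* differed by 3.28, *Hk* by 1.69 and *sif* by 1.59. Each of these 13 had a fitted effect below 0 at 24 h ALH. The muscle gene *sls* differed by 3.55, with most stage 17 UMIs of *pros*-positive neurons in 1 cell.

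In the other direction were the nuclear receptor *Hr51* at -5.12, *Vsx1* at -3.90, *sals* at -3.55, the tetraspanin *lbm* at -2.83, *Dif* at -2.42 and *dac* at -2.17. All 6 were above 0 at 24 h ALH.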

How the results depend on the processing

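The count at 24 h ALH (1270) held within 1.5 times under 9 of the alternatives and the leave-one-out fits gave 571 to 1279. The leave-one-out fits were made over both stages at once, where 1073 genes were called at 24 h ALH with every library kept. Without a filter on low counts 278 genes were called at stage 17, 1963 at 24 h ALH and 414 for the stage difference. With pairs ignored (no replicate block) the counts were 0 (152 at an unadjusted p under 0.05), 971 and 0 (587). DESeq2 called 30, 568 and 132, RLE size factors 26, 1294 and 44, and 1 fit over both stages 14 and 1073. *pros* of 1 UMI gave 22, 1338 and 2, *pros* of 200 CPM 9, 1475 and 129, and *nSyb* of 500 CPM 15, 589 and 54. Thinning gave 9, 411 and 43, groups set after thinning 0 (94 unadjusted), 201 and 17, and depth matching 0 (218), 802 and 1. Without doublets the counts were 21, 1258 and 74, without *repo* cells 0 (450), 1427 and 102, without *Hey*, *ase* or *mira* cells 7, 467 and 16, without *prt* cells 0 (386), 1756 and 100, and without shared barcodes 38, 1270 and 78. Leaving out each library gave 21 to 250 at stage 17 and 19 to 278 for the stage difference. The highest stage 17 counts came without a 24 h ALH library, and the reason was not tested. In each leave-one-out fit, the stage left with a lone pair was taken to vary like the other stage. Without the second stage 17 library, 34.1% of the stage 17 calls were higher, as against 83.3%, and the median of all genes was -0.32.

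Of 1918 values of 102 genes named at 24 h ALH, 1649 kept direction and call, 260 lost the call and 9 turned. At stage 17, of 357 values of 19 genes, 159 kept both, 194 lost the call and 4 turned, and for the stage difference, of 187 values of 10 genes, 119, 67 and 1. Without *prt* cells, *CG13056* at stage 17 was 0.40, *jdp* -0.47 at stage 17 and -0.94 at 24 h ALH, *Nep1* -1.92, *Dop1R2* -1.13, *ab* -0.94 and *Dop1R1* -0.83 at 24 h ALH, and *sals* 1.42 for the stage difference. *CG13056* was 0.10 with *pros* of 1 UMI. *dap* was -0.78 without *Hey*, *ase* or *mira* cells. *trn* was -0.024 with *nSyb* of 500 CPM, -0.13 with groups set after thinning and -0.93 without *Hey*, *ase* or *mira* cells. *sls* at stage 17 ran from -4.99 to 2.60 over the libraries left out. The cause of these changes was not tested. The *pros*-positive sum of the first stage 17 library rests on 19 cells and 132930 UMIs, which limits its precision.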

Other observations

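Neurons with 1 *pros* UMI stood in neither group, and their levels at 24 h ALH, as CPM of their own UMIs, are given beside those of their neighbours. The 16 and 37 neurons with 1 *pros* UMI held *mub* at 260 and 446, the 2 and 9 with 2 UMIs at 213 and 299, and the 40 and 118 with 3 or more at 2280 and 3425, as against 414 and 355 with none. *prt* stood at 0 and 1.94 with 1 UMI, 0 and 7.48 with 2, 562 and 333 with 3 or more and 3.34 and 3.62 with none. *Snap25* stood at 438 and 563 with 1 UMI, 71.0 and 157 with 2, 226 and 204 with 3 or more and 682 and 697 with none. *VAChT* stood at 253 and 171 with 1 UMI, 302 and 37.4 with 2, 554 and 637 with 3 or more and 408 and 417 with none. For *mub* and *prt*, neurons with 1 or 2 *pros* UMIs were near those with none. For *Snap25*, neurons with 1 lay between those with none and those with 3 or more in both libraries. These are descriptions of few cells with no test.

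*pros*-positive neurons with a *Gad1* UMI in the second 24 h ALH library, 13 in number, held a median of 4 *pros* UMIs, and the 114 without one held 24, whereas *pros* over the summed cells stood at 1970 and 2392 CPM. The median depths were 13451 and 9535 UMIs.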
